A study of Mus musculus with 7 samples.

Results

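Endothelial cells line blood vessels. In the 7 mouse tumors profiled here they were rare, and the 450 cells described below are 1.36% of the 33136 cells that passed a filter of at least 500 detected genes and at most 10% mitochondrial UMIs (unique molecular identifiers, each standing for 1 captured RNA molecule). The cells were chosen on measured UMIs. A cell was kept when Cdh5, Kdr, Emcn and Pecam1 gave at least 3 UMIs together and Cdh5 and Emcn at least 1, when the immune genes Ptprc, Csf1r and Adgre1 gave 0, and when the tumor-cell genes Tafa1, Unc5c and Col11a1 gave at most 2. The levels of these 10 genes in the chosen cells are therefore a description and not a result.

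The tumors were allografts of JW23.3, a murine tumor line mutant in Nf1 and Trp53 that models malignant peripheral nerve sheath tumors (MPNST). In both groups the line was implanted under the skin of the flank of female wildtype C57/B6 mice aged 5 to 6 weeks. Animals were randomized on day 7. The irradiated group (4 tumors) received 5 daily fractions of 2 Gy with shielding outside the tumor, and the control group (3 tumors) was not irradiated. Tumors were taken on day 21, dissociated with papain and profiled with a 3′ droplet assay, with 10000 cells loaded and 1 library per tumor, so the tumor was the replicate. All tumors came from 1 cell line, and the labels describe the animals as separate biological replicates.

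As background, vessels form a hierarchy in which arteries deliver blood, capillaries exchange nutrients and lipids, and veins drain blood and admit leukocytes. Sprouting begins with tip cells, which respond to VEGF and lay down new basement membrane, while Notch signaling restrains their neighbors and favors the arterial program. Venous identity depends on the transcription factor encoded by Nr2f2, and postcapillary venules carry the selectins and adhesion molecules that capture leukocytes. Transplanted tumors draw their vessels largely from the host.

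The libraries held 2859 to 8452 deposited cells and 53496570 to 153044123 UMIs. The endothelial cells of a tumor numbered 18 to 130 and held 191399 to 939069 UMIs, with a median of 4815.5 to 12786 UMIs per cell. The 2 libraries of a pair shared 3 to 19 cell barcodes, at most 0.397% of the smaller library, and 1 barcode was endothelial in both control 2 and control 3. By cell number, UMIs and genes per cell and mitochondrial share, the 7 libraries split best into irradiated 1, control 2 and control 3 (technical set 1) and the remaining 4 (technical set 2). Neither the labels nor the file headers name such sets, so the main group differences in shares are also given within each.

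The label was checked on genes that the rule did not use. Egfl7, which encodes a factor secreted by endothelium, stood at 654 to 872 counts per 1000000 UMIs (CPM) in the endothelial cells of the 7 tumors and at 3.50 to 6.64 CPM in all other filtered cells. Ptprb, the endothelial receptor phosphatase VE-PTP, ranged from 676 to 1420 CPM against 0.740 to 4.71, and Plvap, a protein of fenestral diaphragms, from 545 to 784 CPM against 3.07 to 5.34. The junction gene Esam ranged from 449 to 609 CPM against 1.38 to 3.01. In no tumor did the endothelial value of any of these 4 genes fall near that of the other cells.

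Not every vessel gene was so restricted. The VEGF receptor gene Flt1 reached 692 to 1164 CPM in endothelial cells but 36.5 to 73.9 in the rest, and Fli1, a transcription factor of endothelium and blood cells, had a median of 245 CPM in macrophage cells beside 502 to 787 in endothelial cells. The tight junction gene Cldn5 was low, at 57.5 to 220 CPM, and 17.1% of endothelial cells thinned to 2000 UMIs carried a UMI of it. Xist, which the study used to mark cells of the female hosts since the implanted line is male, was found in 83.1% to 94.6% of the endothelial cells of a tumor and in 3.30% to 6.67% of cells chosen as MPNST cells.

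**Figure D1:**
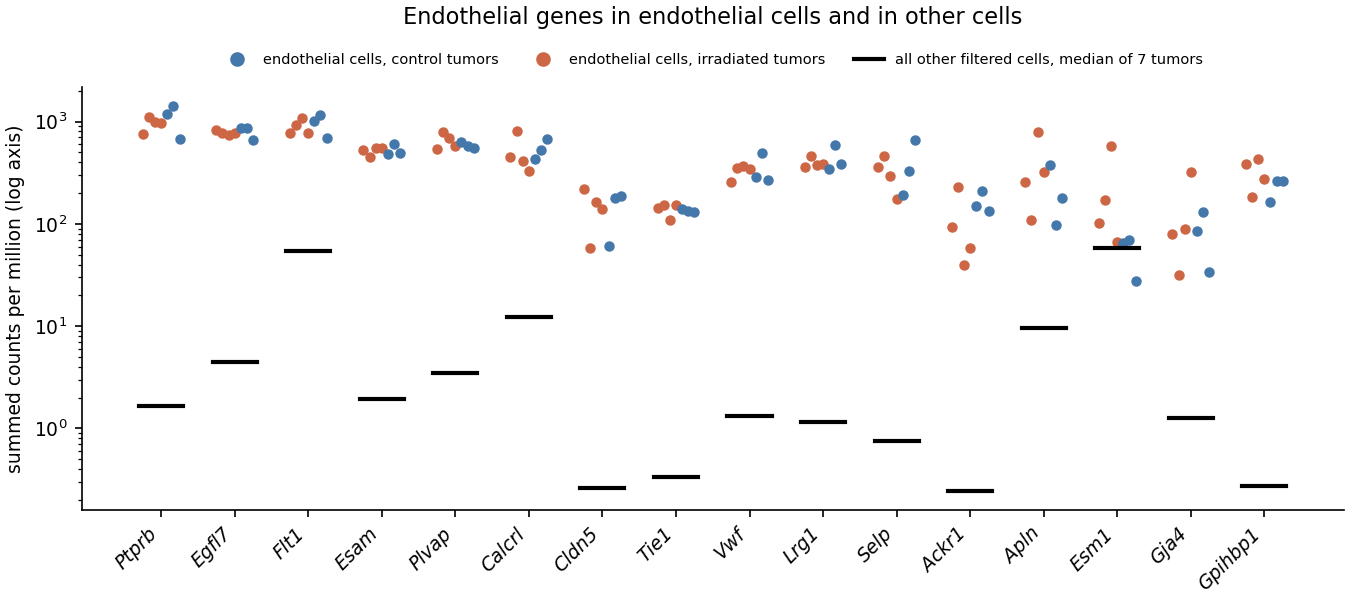
Level of 16 vessel genes that the cell rule did not use, in CPM summed over the endothelial cells of each tumor (points, irradiated tumors in orange and control tumors in blue, log axis); the black bar is the median over the 7 tumors of all other filtered cells. For Egfl7 the 7 points lie between 654 and 872 CPM above a bar near 4.5, whereas the Esm1 points straddle their bar.

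The marker sum of the chosen cells ran from 3 to 286 UMIs with a median of 20. At the edge of the rule lay 13 cells with exactly 3 marker UMIs. Their Egfl7 level was 287 CPM and that of the collagen gene Col1a1 2113 CPM, and Xist was found in 61.5% of them. Just outside, 19 cells with 2 marker UMIs had 74.0 CPM of Egfl7 and 4040 CPM of Col1a1, while the 437 cells with at least 4 had 790 and 66.0 CPM.

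Other cell types left traces. The macrophage gene list summed to 152 to 269 CPM in endothelial cells of irradiated tumors and 319 to 610 in those of control tumors. The pericyte list (mural cells that wrap capillaries) summed to 199 to 598 CPM in irradiated tumors and to 2428, 604 and 401 CPM in controls 1, 2 and 3. The list of 6 MPNST genes, of which the rule itself limits Tafa1, Unc5c and Col11a1, summed to 5.54 to 39.2 CPM in irradiated and 85.2 to 178 CPM in control tumors, without overlap. At least 3 pericyte UMIs were found in 43 of the 450 cells, and at least 2 of the lymphatic genes in 10, of which 5 came from control 3. Lymphatic genes summed to 496 CPM in control 3 and to 31.3 to 87.0 in the other 6 tumors. Prox1, the lymphatic master regulator, ranged from 1.63 to 46.9 CPM and was highest in control 3. A doublet caller marked none of the 450 cells, but it called only 2 cells of any type in irradiated 1 and 4 in irradiated 3.

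The share of endothelial cells among filtered cells was 1.19%, 0.779%, 1.22% and 1.06% in irradiated tumors 1 to 4 and 1.17%, 1.88% and 1.52% in control tumors 1 to 3. The lowest share was that of irradiated 2 (18 of 2310 cells, 95% Wilson interval 0.493% to 1.23%) and the highest that of control 2 (130 of 6900, 1.59% to 2.23%). These intervals cover counting error only. The groups overlapped, since control 1 lay below irradiated 1 and irradiated 3.

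Irradiated tumors averaged 1.06% ± 0.200 (SD, n = 4), whereas control tumors averaged 1.52% ± 0.359 (SD, n = 3). The difference of -0.463 percentage points did not pass a two-sided exact permutation test over the 35 splits of the tumors (p = 0.0857, smallest possible p 0.0286). It was -0.512 within technical set 1 and -0.149 within set 2. Among host-side cells, taken as those with a UMI of Xist and at most 2 UMIs of the tumor-cell genes, endothelial cells made up 3.15%, 1.39%, 2.57% and 1.39% in irradiated and 3.14%, 4.11% and 3.42% in control tumors (difference -1.43, exact permutation p = 0.0857).

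To describe vessel programs, every cell with at least 2000 UMIs was thinned to 2000 UMIs, which left 398 cells and set aside 52 shallower ones. A cell was called marked when it carried a UMI of an anchor gene. The anchors were Apln and Esm1 for tip cells, Gja4, Gja5 and Sema3g for arterial cells, Ackr1 and Selp for venous cells, Gpihbp1, Cd300lg and Btnl9 for capillary cells, and Mki67, Top2a and Birc5 for cycling cells. Marks are not cell types, and a cell may carry several or none. The tip mark was found in 105 cells, the arterial mark in 69, the venous mark in 123, the capillary mark in 129 and the cycling mark in 48.

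The arterial, venous and capillary anchors were nearly absent elsewhere. In 9099 macrophage cells and 12745 MPNST cells thinned alike, the arterial mark was found in 0.0659% and 0.180%, the venous mark in 0.0110% and 0.0235%, and the capillary mark in 0.0659% and 0.0314%. The tip mark was found in 0.253% of the macrophage cells but in 11% of the MPNST cells. Median UMIs before thinning were 7412 in endothelial, 8193 in macrophage and 23486 in MPNST cells.

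The MPNST share of the tip mark came from Esm1, a secreted proteoglycan of sprouting vessels. A UMI of Esm1 was found in 9.30% of thinned endothelial and 9.39% of thinned MPNST cells, so its share in endothelial cells was no higher than in cells of another type. Apln, which encodes the ligand of the apelin receptor, was found in 21.1% of endothelial and 1.89% of MPNST cells. Tip results are therefore also given with Apln as the only anchor, which marked 84 cells.

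Most cells carried few vessel marks. Of the 398 cells, 82 (20.6%) had none of the tip, arterial, venous and capillary marks, 215 (54.0%) had 1, 92 (23.1%) had 2, 9 (2.26%) had 3 and 0 had all 4, a count that allows a share of up to 0.754%. Arterial and venous marks met in 4 cells, which was 5.80% of arterial-marked cells beside 30.9% of all cells with the venous mark. Venous and capillary marks met in 11 cells, 8.94% of the venous-marked cells. Tip and capillary marks met in 44 cells, 41.9% of the tip-marked cells beside 32.4% of all cells with the capillary mark. These shares are descriptions, since cells of 1 tumor share a library. The cycling mark, which reads cell division, was found together with the tip mark in 21 cells, 43.8% of cycling-marked cells beside 26.4% of all.

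**Figure D2:**
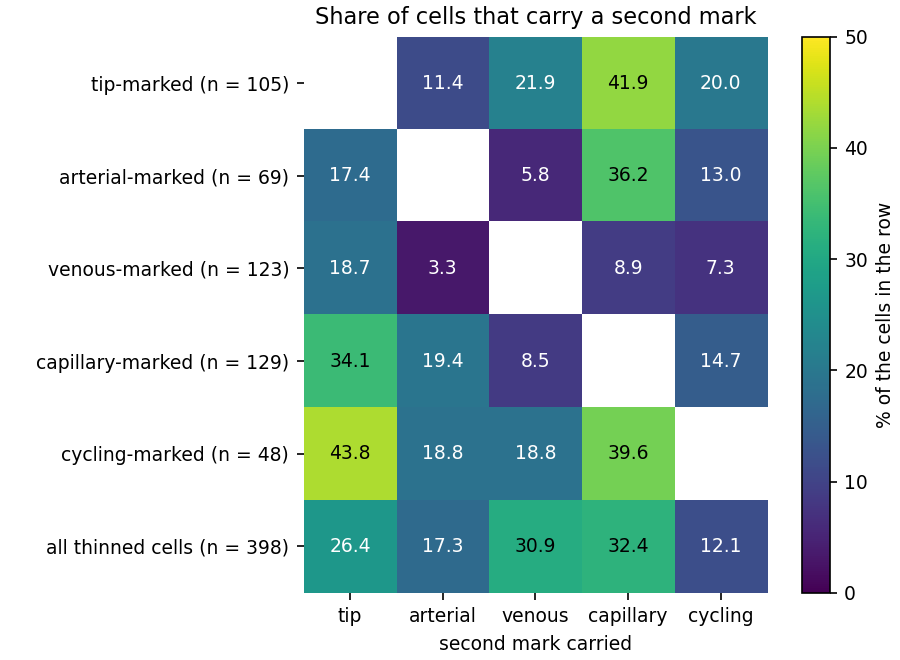
Share (%) of the cells of each row, thinned to 2000 UMIs, that also carry the mark of the column; the last row gives all 398 thinned cells. Of arterial-marked cells 5.80% also carry the venous mark, against 30.9% of all cells.

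Deeper cells were more often marked by some anchors. Median UMIs before thinning were 9593 in tip-marked and 6823 in other cells, 8853 and 6982 for the capillary mark, 6018 and 7773 for the arterial mark, 6965 and 7939 for the venous mark, and 10929.5 and 7275.5 for the cycling mark. Tip and cycling marks, which often met, thus both lay in deeper cells. Cells with at least 3 pericyte UMIs made up 16 of 69 arterial-marked but 3 of 123 venous-marked cells. Without these pericyte-positive cells, 51 genes passed in place of 44 for the tip mark, 63 in place of 95 for arterial, 538 in place of 626 for venous, 55 in place of 72 for capillary and 278 in place of 403 for cycling cells. Of the named calls still tested, 3 of 12 tip and 3 of 12 capillary calls then lost the threshold.

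For each mark, UMIs of the marked and unmarked cells were summed per tumor and compared with edgeR's quasi-likelihood test with tumor as a term and Benjamini-Hochberg adjustment over all genes tested. Tumors needed at least 5 cells on each side. This left 6 tumors for tip, arterial, venous and cycling marks, without irradiated 2, and all 7 for the capillary mark. Anchor genes are not read as results of their own mark, but they stay in the lists when another mark is compared. Unmarked cells include cells that carry the other marks. A fall of another mark's anchor thus restates in part how seldom the marks met. Values below follow the order irradiated 1, 3 and 4 and control 1, 2 and 3.

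Tip-marked cells had 12 genes higher (0.205% of 5853 tested) and 32 lower (0.547%). Bnip3, a mitochondrial autophagy receptor, was at 32.7, 159, 80.1, 148, 27.1 and 44.6 CPM in tip-marked cells and 24.3, 18.8, 9.56, 30.9, 20.2 and 10.7 in the others. It was higher in all 6 tumors (log2 fold change 1.82 ± 0.36 SE, adjusted p = 0.0269). The glycolytic enzyme genes Tpi1 (1.13 ± 0.23, adjusted p = 0.0384), Eno1 (1.03 ± 0.20, 0.0269) and Pgk1 (1.00 ± 0.21, 0.0318) were also higher in all 6 tumors. The Pgk1 gap was small in control 3, where both cell groups were close to 156 CPM. So was the Tpi1 gap in control 2, with 103 CPM in tip-marked and 99.4 CPM in other cells.

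The cyclin D1 gene rose with the tip mark as well. Ccnd1 was at 389, 478, 401, 391, 244 and 396 CPM in tip-marked and 153, 174, 196, 273, 140 and 173 CPM in the other cells, with no overlap between them except that control 1 unmarked lay above control 2 marked (1.05 ± 0.17, adjusted p = 0.00658). The monocarboxylate transporter gene Slc16a6 rose by a log2 fold change of 2.27 ± 0.46 (adjusted p = 0.0299). Of the genes that fell, the endothelin receptor gene Ednrb averaged 15.1 CPM in marked and 75.2 CPM in other cells (-2.30 ± 0.46, adjusted p = 0.0334).

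With Apln as the only anchor, 69 genes passed in place of 44. Slc16a6, Bnip3, Ccnd1 and Eno1 were among them, and Tpi1 (adjusted p = 0.0686) and Pgk1 (adjusted p = 0.0577) were not. When the tumor term was dropped, 0 genes passed at an adjusted p under 0.05 and 809 at an unadjusted p under 0.05.

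The promoter windows of Bnip3 and Pgk1 are shown because both genes rose with the tip mark and are known targets of hypoxia-inducible factors. The windows hold the 250 bases before the transcription start in RefSeq (GRCm38.p6), on the coding strand from 5′ to 3′. Capitals mark the core of the hypoxia response element, ACGTG or GCGTG on either strand, where overlapping matches run together. Bnip3 lies at chr7:138909507-138909756 (minus strand) with 5 matches, and Pgk1 at chrX:106186850-106187099 (plus strand) with 2.
Bnip3: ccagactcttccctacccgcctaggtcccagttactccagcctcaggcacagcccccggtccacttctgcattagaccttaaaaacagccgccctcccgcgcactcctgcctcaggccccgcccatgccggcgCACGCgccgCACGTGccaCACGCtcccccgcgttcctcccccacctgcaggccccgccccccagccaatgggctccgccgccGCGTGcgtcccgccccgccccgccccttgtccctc
Pgk1: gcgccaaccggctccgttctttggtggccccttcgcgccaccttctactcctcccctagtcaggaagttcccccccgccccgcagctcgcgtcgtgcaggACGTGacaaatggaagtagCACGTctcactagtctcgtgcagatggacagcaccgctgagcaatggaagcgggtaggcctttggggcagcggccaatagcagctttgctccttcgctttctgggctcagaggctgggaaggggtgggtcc
The core was present in 6 of the 9 tip-higher genes with a RefSeq window (66.7%), against 64.5% of the 4664 tested genes with one and 41.5% of all 27025 genes, so the share was near that of all tested genes. The Tpi1 window held 0 matches.

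The tip program list, apart from its anchors, had 0 of 23 tested members called, although its median log2 fold change was 0.86 beside 0.00 over all genes. The angiopoietin gene Angpt2, an antagonist of the Tie2 receptor, was at 124, 1035, 154, 319, 38.0 and 190 CPM in tip-marked and 75.2, 98.6, 76.5, 56.2, 27.6 and 91.9 CPM in other cells. It lay higher in 6 of 6 tumors but with a wide spread (1.64 ± 0.40, adjusted p = 0.108; 0.0420 with Apln alone). The chemokine receptor gene Cxcr4 (1.86 ± 0.44, adjusted p = 0.103) and the pericyte attractant gene Pdgfb (0.86 ± 0.20, adjusted p = 0.0554; 0.0393 with Apln alone) also missed the threshold. Interferon genes had negative medians with the tip mark, and so did other lists. Of 25 tested type I members 1 was lower and 0 higher (median -0.92), and of 14 type II members 2 were lower and 0 higher (median -1.10). Those called were Oasl2 (-1.58), Gbp3 (-1.64) and the chemokine gene Cxcl9 (-2.25). MHC class I genes were negative for 13 of 13 (median -0.49, 1 called lower), dissociation-stress genes for 15 of 15 (median -0.46), pericyte genes for 7 of 7 (median -2.13) and macrophage genes for 3 of 3 (median -0.89). The part of stress and other-cell RNA in the interferon values was not tested.

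Arterial-marked cells had 54 genes higher (0.93% of 5804 tested) and 41 lower (0.706%). Of 18 tested members of the arterial list other than the anchors, 5 were higher and 0 lower, with a median log2 fold change of 0.90. Efnb2, which encodes the arterial ephrin ligand, was at 350, 193, 673, 311, 486 and 514 CPM in marked and 165, 111, 60.7, 72.0, 128 and 159 CPM in other cells. Every marked value lay above every unmarked value (1.80 ± 0.27, adjusted p = 0.00252). Hey1, a transcriptional effector of Notch, averaged 160 CPM in marked and 27.2 CPM in other cells and was higher in 6 of 6 tumors (2.34 ± 0.38, adjusted p = 0.00448).

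The kinase gene Bmx stood at 26.4, 29.7, 114, 47.1, 147 and 98.8 CPM in marked and 1.74, 18, 0, 16.0, 11.3 and 6.82 CPM in other cells (3.03 ± 0.66, adjusted p = 0.0220). Irradiated 3 and control 3 each had 6 arterial-marked cells, so low values there rest on few UMIs. The chemokine gene Cxcl12 (1.56 ± 0.31, adjusted p = 0.0288) and the clusterin gene Clu (1.43 ± 0.32, adjusted p = 0.0288) were the remaining list members called, Clu in 5 of 6 tumors. Outside the list, the natriuretic peptide clearance receptor gene Npr3 averaged 53.1 CPM against 2.34 (4.36 ± 0.95, adjusted p = 0.0222) and the retinol-binding protein gene Rbp7 101 CPM against 6.70 (3.61 ± 0.52, adjusted p = 0.00143). Glul, the glutamine synthetase gene, rose by 1.89 ± 0.27 (adjusted p = 0.00152). The Notch receptor genes in the list did not pass, with log2 fold changes of 0.35 ± 0.22 for Notch1 and -0.10 ± 0.34 for Notch4.

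Of 16 tested venous members 3 were lower in arterial-marked cells and 0 higher. E-selectin (Sele) was at 6.6 CPM in marked cells of irradiated 1 and at 0 in the other 5 tumors, beside 5.99 to 323 CPM in unmarked cells (-5.69 ± 0.61, adjusted p = 5.9e-05). Selp fell by 4.02 ± 0.59 (adjusted p = 0.0132) and the chemokine-scavenging receptor gene Ackr1 by 2.91 ± 0.46 (adjusted p = 0.00252). Selp and Ackr1 are the venous anchors, whereas Sele is not an anchor. Only 4 of the 69 arterial-marked cells carried the venous mark, so the fall of both anchors restates that overlap. Within the tip list 3 of 25 tested members fell, namely Angpt2 (-2.16), Trp53i11 (-1.60) and the laminin gene Lamb1 (-1.03).

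The pericyte list also had a positive median with the arterial mark, 2.46 over 10 tested members. Its 1 called member was Notch3, at 164 CPM against 27.6. Without cells that held at least 3 pericyte UMIs, of 17 named arterial calls still tested, 3 lost the threshold and 0 turned direction. Of 15 tested dissociation-stress genes 3 rose, among them Egr1 (434 against 124 CPM).

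The promoter windows shown are those of Bmx (chrX:164258194-164258443, minus strand) and Cxcl12 (chr6:117168285-117168534, plus strand). Both genes rose with the arterial mark, where Notch signaling through RBPJ is known to act, and both windows held a match. Capitals mark the RBPJ core TGGGAA on either strand, found once in each.
Bmx: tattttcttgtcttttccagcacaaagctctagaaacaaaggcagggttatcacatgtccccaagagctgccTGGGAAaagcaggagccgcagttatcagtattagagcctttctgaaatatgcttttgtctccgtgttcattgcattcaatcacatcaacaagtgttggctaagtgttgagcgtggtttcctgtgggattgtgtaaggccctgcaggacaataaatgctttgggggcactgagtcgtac
Cxcl12: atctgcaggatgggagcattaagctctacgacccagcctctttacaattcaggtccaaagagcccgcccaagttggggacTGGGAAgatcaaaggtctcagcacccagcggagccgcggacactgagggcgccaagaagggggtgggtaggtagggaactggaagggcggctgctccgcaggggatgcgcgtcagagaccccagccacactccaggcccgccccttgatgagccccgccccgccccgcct
The core was present in 9 of 37 arterial-higher genes with a window (24.3%), against 23.2% of tested genes and 24.1% of all genes. The arterial-higher genes thus held it at the background share. The Efnb2 window, also searched, held 0 matches.

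Venous-marked cells had 311 genes higher (4.78% of 6504 tested) and 315 lower (4.84%). Of 15 tested venous list members other than the anchors, 12 were higher and 0 lower. Lrg1, a leucine-rich glycoprotein of venules, was at 1106, 735, 612, 735, 918 and 645 CPM in marked and 198, 197, 284, 235, 382 and 270 CPM in other cells. Every marked value lay above every unmarked value (1.62 ± 0.17, adjusted p = 1.2e-06). Nr2f2, the venous regulator, was higher in 6 of 6 tumors (417 against 218 CPM, 0.95 ± 0.18, adjusted p = 0.00105), as was the von Willebrand factor gene Vwf (519 against 274 CPM, 0.95 ± 0.19, adjusted p = 0.00154).

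Of 14 tested genes of leukocyte adhesion and chemokines 4 were higher and 2 lower in venous-marked cells. Sele was at 721, 7.82, 194, 115, 191 and 969 CPM in venous-marked and 3.66 to 13.2 CPM in other cells. It was high in irradiated 1 and control 3 and close to the unmarked level in irradiated 3 (5.69 ± 0.52, adjusted p = 7.2e-05). Vcam1 (1.77 ± 0.29, adjusted p = 0.00115) and Icam1 (2.04 ± 0.43, adjusted p = 0.0220), which encode integrin ligands, were higher in 6 of 6 tumors, and the interleukin receptor gene Il1r1 in 5 of 6 (2.08 ± 0.33, adjusted p = 0.00229). Jam2 (0.98) was the fourth that rose, and Cxcl12 (-2.59) and Icam2 (-1.48) fell.

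The tip list was low in venous-marked cells, with 17 of 25 tested members lower and 0 higher and a median of -1.40. The potassium channel subunit gene Kcne3 had 0 CPM in venous-marked cells of all 6 tumors and 23 to 139 CPM in the others. The placental growth factor gene Pgf averaged 1.85 against 73.9 CPM, the netrin receptor gene Unc5b 3.79 against 97.6 CPM, and the Notch ligand gene Dll4 39.9 against 131 CPM. Igfbp3 averaged 63.0 against 1180 CPM. Of the basement membrane list 8 of 13 members fell, among them the genes of fibronectin (Fn1, -3.15) and of a laminin chain (Lama4, -2.27), and 1 rose, biglycan (Bgn, 1.22).

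Arterial genes fell with the venous mark for 7 of 21 tested members, among them Efnb2 (-2.15), Hey1 (-3.30) and Notch4 (-2.12), and 1 rose (Fbln5, 1.20). Of 11 tested capillary members 5 fell, including Rgcc (-1.60), and 2 rose, the water channel gene Aqp1 (0.93) and Meox2 (0.98). Pan-endothelial genes split, with 8 of 25 higher and 4 lower. Cldn5 averaged 15.4 CPM in venous-marked and 214 CPM in other cells (-3.66), while Ptprb (0.82), Calcrl (0.89) and Plvap (0.57) were higher.

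Of 15 tested dissociation-stress genes 8 were higher in venous-marked cells, among them Jun (0.90) and Fos (0.93), and none was lower. The type II interferon list had 3 of 15 higher (Gbp2, Gbp5 and Iigp1) and 0 lower, and the MHC class I list 2 of 13 (H2-Q7 and H2-T23). Pericyte genes were lower for 5 of 9. With the cells thinned to 2000 UMIs before summing, 159 genes passed of 1803 tested. The kappaB motif was searched only as GGGRNNYYCC on either strand. R stands for A or G, Y for C or T and N for any base. This pattern was found in the windows of 35 of 233 venous-higher genes (15.0%), against 11.4% of tested and 8.23% of all genes. It had 0 matches in the windows of Sele, Icam1 and Lrg1, and looser forms of the site were not searched. Vcam1 had no window.

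Capillary-marked cells of all 7 tumors had 26 genes higher (0.422% of 6158 tested) and 46 lower (0.747%). The called members of the capillary list, 3 of 9 tested, were Lpl, Cd36 and Rgcc. The list median was 0.34, with 7 of 9 positive. The tip list had a higher median with the capillary mark, 0.52, with 24 of 25 positive. Lpl, the lipoprotein lipase gene whose product the anchor Gpihbp1 holds at the capillary wall, averaged 37.3 CPM in marked and 3.38 CPM in other cells (3.36 ± 0.72, adjusted p = 0.0149, higher in 7 of 7 tumors). In control 3 the marked cells held 3.15 CPM, a value near the floor, beside 0 in the unmarked cells. Lpl was also at 0 in unmarked cells of irradiated 2, irradiated 4 and control 1. Cd36, a fatty acid transporter, was at 193, 635, 646 and 1666 CPM in marked cells of irradiated 1 to 4 and 107, 510 and 173 CPM in those of controls 1 to 3. Unmarked cells held 97.2, 128, 159 and 350, then 110, 189 and 76.7 CPM, so control 1 showed no increase (1.48 ± 0.23, adjusted p = 0.00224).

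The fatty acid-binding protein gene Fabp4 had the widest range of the capillary members, from 328 to 6512 CPM in marked and 144 to 712 CPM in other cells. It was higher in 6 of 7 tumors and missed the threshold (2.59 ± 0.70, adjusted p = 0.205). Rgcc, a cell cycle regulator of capillaries, was higher in all 7 (1.03 ± 0.19, adjusted p = 0.00494). Members of other programs were called as well. The tip members Cxcr4 (1.89), Trp53i11 (1.16) and Fscn1 (0.89) were higher, 3 of 25 tested, and Nr2f2 fell (-1.29), as did the arterial members Eln and Clu. The collagen gene Col6a3 averaged 5.99 against 71.2 CPM (-3.33 ± 0.42, adjusted p = 0.0002). Beside these changes, 8 of 8 tested pericyte genes were negative (median -3.05, 1 called lower), as were 15 of 15 dissociation-stress genes (median -0.58, 1 called lower), and their part was not tested further. When the tumor term was dropped, 15 genes passed and none of the 16 named calls held.

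**Figure D3:**
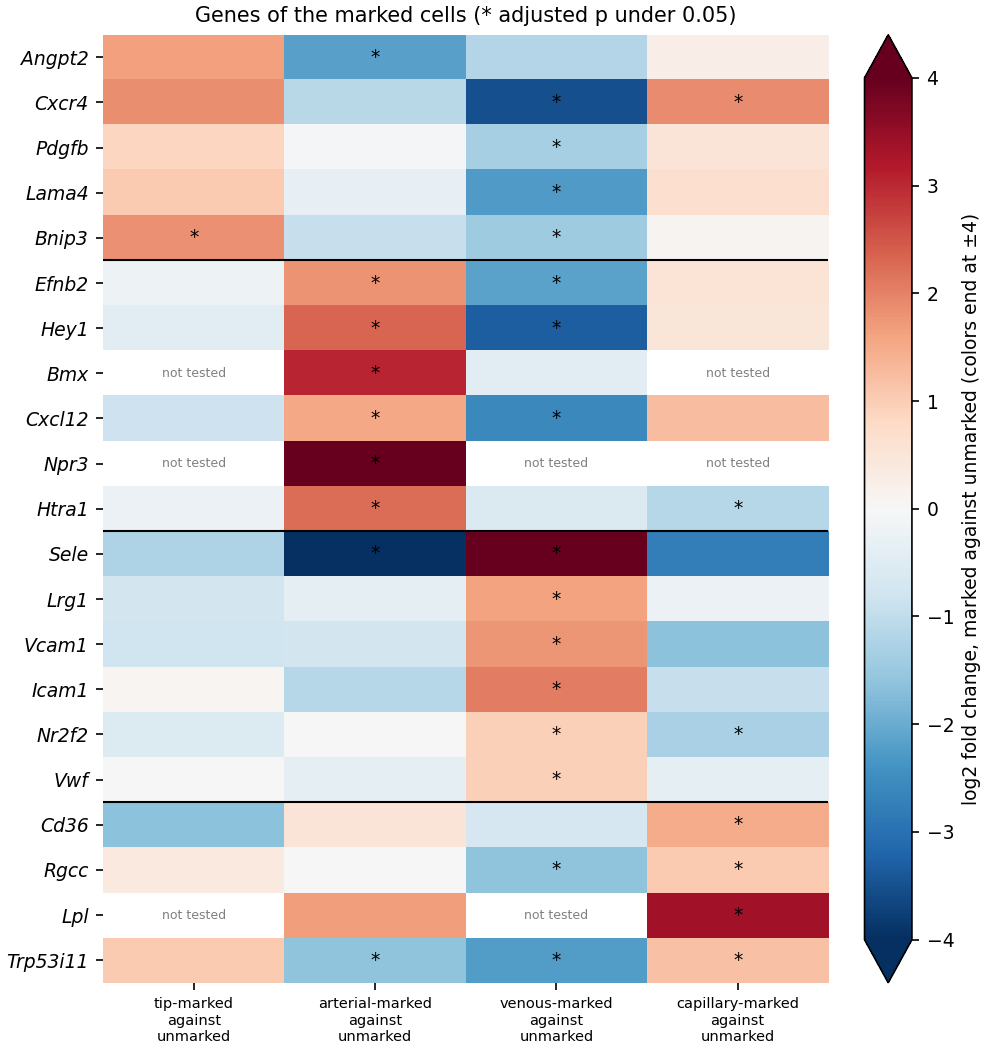
Log2 fold change between marked and unmarked endothelial cells (color, ending at ±4) for 21 genes in the 4 vessel marks; asterisks stand for an adjusted p under 0.05 and white fields for genes not tested. Sele lies at 5.69 with the venous and -5.69 with the arterial mark, and Efnb2 at 1.80 with the arterial and -2.15 with the venous mark.

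The 48 cycling-marked cells had 243 genes higher (4.18% of 5808 tested) and 160 lower (2.75%). The cell cycle list, apart from its anchors, had 23 of 26 tested members higher, for example the mitotic ubiquitin-conjugating enzyme gene Ube2c (422 against 11 CPM, 5.21 ± 0.36, adjusted p = 7.4e-10) and Cdk1 (248 against 21.5 CPM, 3.52 ± 0.31). Of 15 tested venous members 5 fell and 0 rose, among them the venous anchor Selp (-2.47), Nr2f2 (-0.83) and Vwf (-0.82). In the tip list 0 of 25 members passed in either direction. Of 22 tested type I interferon genes 8 fell, from Ifi44 (-1.05) to Ifit3 (-3.81), and 3 of 11 type II genes fell (Iigp1, Gbp2 and Irf1). With cells thinned before summing, 72 genes passed of 1003 tested. The cycling anchors were also found in 11.4% of macrophage and 16.5% of MPNST cells, types that divide themselves.

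No difference in the share of a mark between irradiated and control tumors passed its test. The tip mark was found in 29.4%, 23.1%, 37.5% and 34.5% of thinned endothelial cells in irradiated tumors 1 to 4 and 30.2%, 23.6% and 19.4% in control tumors 1 to 3. The means were 31.1% ± 6.31 and 24.4% ± 5.46 (SD, difference 6.72, exact permutation p = 0.229, 0.429 adjusted over 5 marks). The difference was 7.92 within technical set 1 and 1.5 within set 2. With Apln alone the shares were 25%, 15.4%, 25% and 31.0% in irradiated and 28.3%, 14.5% and 18.3% in control tumors.

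The venous mark leaned the other way. It was found in 23.5%, 30.8%, 31.3% and 27.6% of cells in irradiated and 28.3%, 33.6% and 35.5% in control tumors (difference -4.19, exact permutation p = 0.229, adjusted 0.429), with -11.0 in set 1 and 1.57 in set 2. The capillary mark averaged 34.8% ± 3.69 and 31.2% ± 2.58 (difference 3.69, exact permutation p = 0.257, adjusted 0.429), with -0.223 in set 1 and 7.36 in set 2. The arterial mark averaged 20.5% ± 4.15 and 16.4% ± 9.98 (difference 4.04, exact permutation p = 0.543, adjusted 0.657), with the lowest share, 6.45%, in control 3. The arterial difference was 12.1 in set 1 and -6.99 in set 2. Without control 3 the arterial difference over both sets was -0.939. The cycling mark averaged 14.9% ± 9.13 and 11.8% ± 4.75 (difference 3.12, exact permutation p = 0.657, adjusted 0.657), with 27.6% in irradiated 4. Without that tumor the difference was -1.10. Within the technical sets the cycling difference was -1.35 in set 1 and 1.87 in set 2.

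**Figure D4:**
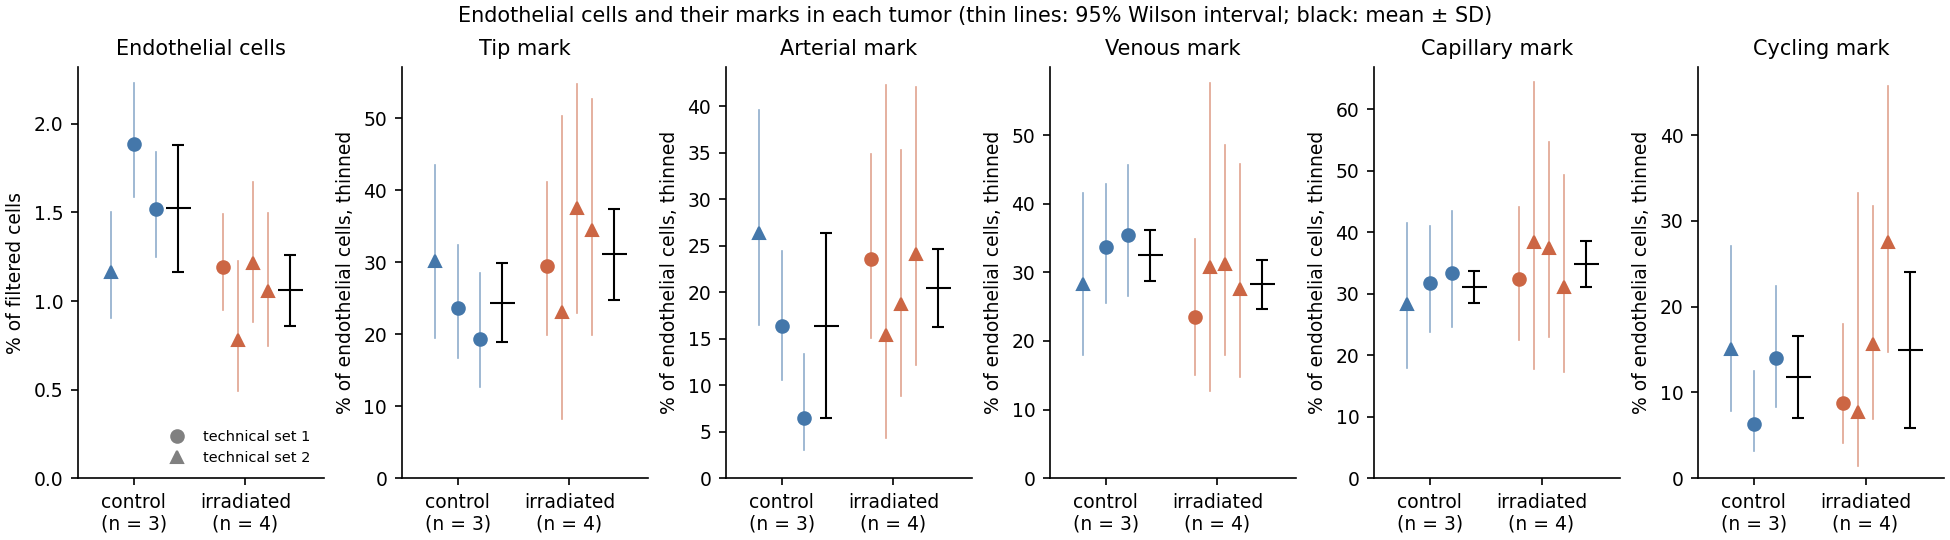
Share of endothelial cells among filtered cells and share of each mark among thinned endothelial cells, per tumor (circles, technical set 1; triangles, set 2), with 95% Wilson intervals as thin lines and the group mean ± SD in black. In every panel the groups overlap.

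For expression after irradiation, UMIs were summed over the endothelial cells of each tumor. Irradiated 2, with 18 cells, fell under the minimum of 20 and was left out of the fit, and its values are shown. At an adjusted p under 0.05, edgeR's quasi-likelihood test called 0 of 7946 genes (0%), with a smallest adjusted p of 0.445. At an unadjusted p under 0.05 there were 326 genes, and DESeq2 called 1. Of all tested genes 5.46% lay above every control tumor in the 3 fitted irradiated tumors and 4.37% below. The values that follow are descriptions of where lists and genes lay.

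Antigen presentation genes mostly had positive fold changes. Of 13 MHC class I genes 12 had a positive fold change, 5 lay above every control (Psmb9, Tap1, H2-Q7, Psmb10 and H2-K1) and the median was 0.73, beside 0.00 for all genes. Psmb9, an immunoproteasome subunit, was at 61.2, 88.8, 93.1 and 91.4 CPM in irradiated tumors 1 to 4 and 37.4, 42.3 and 37.3 CPM in control tumors (1.01 ± 0.25, adjusted p = 0.913). Tap1, the peptide transporter gene, was at 36.7, 73.2, 46.6 and 88.6 CPM and 26.0, 23.8 and 24.5 CPM (1.12 ± 0.34, adjusted p = 1). Both genes separated the groups completely, irradiated 2 included.

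For B2m the groups overlapped, with 1063, 1290, 1726 and 1994 CPM in irradiated and 1132, 823 and 859 CPM in control tumors. The summed level of the list was 3467, 5522, 4422 and 5728 CPM in irradiated and 3373, 2642 and 2892 CPM in control tumors. Irradiated 1 was therefore close to control 1. The list median was 0.50 once technical set entered the fit as a term.

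Type II interferon genes had 14 of 14 tested members positive (22 in the list), 3 above every control (Gbp2, Gbp5 and Cxcl9) and a median of 0.96. Their sum was 893, 2184, 1218 and 3241 CPM in irradiated and 782, 716 and 684 CPM in control tumors. Irradiated 4 was highest and irradiated 1 nearest to the controls. With all 7 tumors the median was 1.05 and with the technical set as a term 0.55. Gbp2, an interferon-induced GTPase gene, was at 61.2, 52.3, 93.1 and 235 CPM and 47.2, 38.3 and 28.8 CPM (1.7 ± 0.50, adjusted p = 1). The T cell chemokine gene Cxcl9 was at 25.8, 5.23, 98.0 and 814 CPM and 21.1, 9.25 and 9.58 CPM (4.50 ± 1.65, adjusted p = 1), a difference carried by irradiated 4.

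Type I interferon genes were less uniform, with 19 of 26 positive, 1 above every control and a median of 0.30 that was 0.07 with the technical set as a term. That gene was Zbp1, a sensor of unusual nucleic acids, at 21.7, 20.9, 31.9 and 85.9 CPM in irradiated and 9.76, 5.28 and 8.52 CPM in control tumors (2.42 ± 0.55, adjusted p = 0.912). Isg15 was at 270, 434, 277 and 341 CPM and 285, 226 and 147 CPM, so the groups overlapped. None of these lists held a gene past the threshold.

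**Figure D5:**
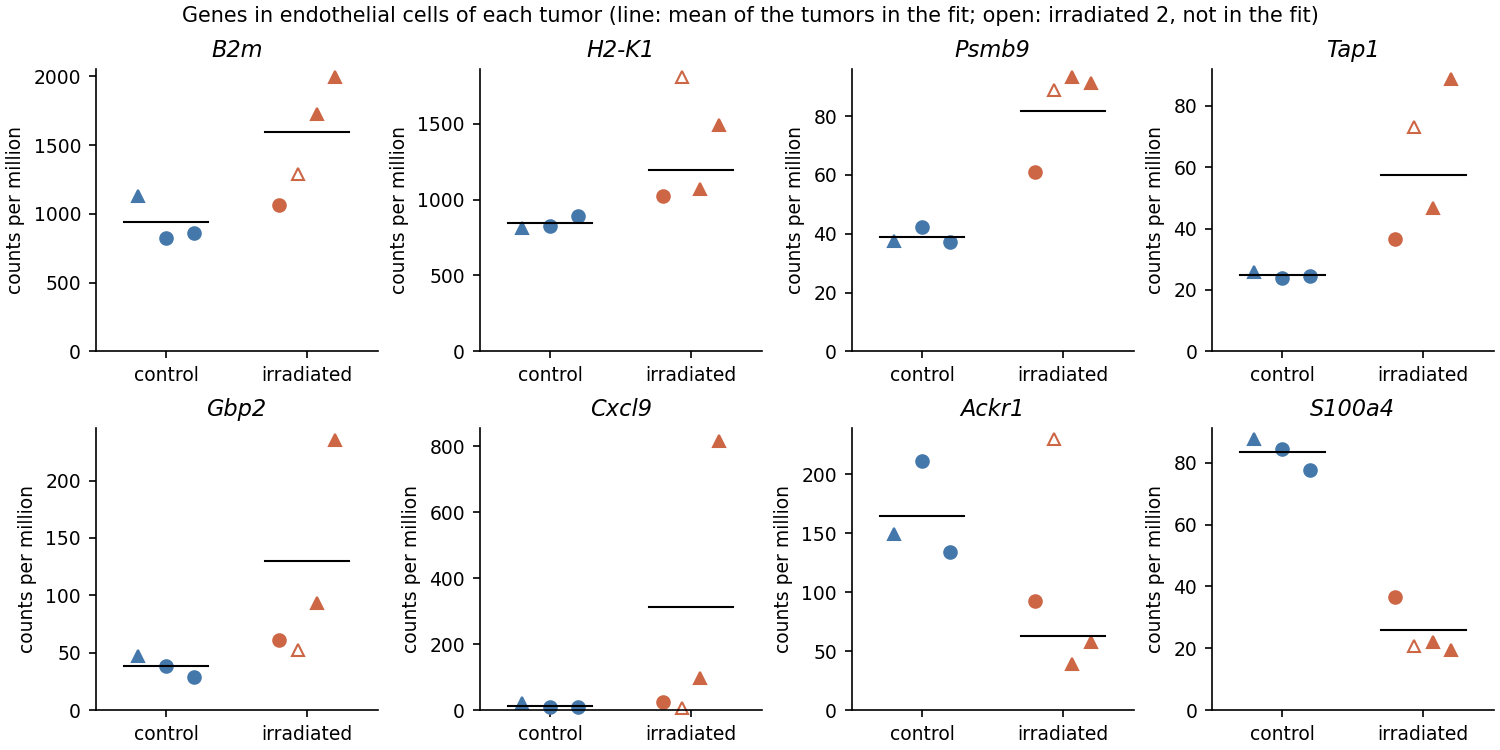
Level of 8 genes in the endothelial cells of each tumor (CPM; circles, technical set 1; triangles, set 2); lines are means of the fitted tumors and the open symbol is irradiated 2, which was not fitted. Psmb9 lies between 61.2 and 93.1 CPM in irradiated and 37.3 and 42.3 CPM in control tumors.

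Among vessel programs, the capillary list had 11 of 13 tested members positive (median 0.63, with 2 above and 1 below every control) and the tip list 22 of 25 (median 0.39, with 3 above). The capillary median was 0.31 without pericyte-positive cells, and the tip median was 0.22 with all 7 tumors. The venous list had 14 of 17 negative (median -0.29, with 2 below), and the arterial list 9 positive and 12 negative (median -0.08). Among venous genes, Ackr1 was at 92.4, 230, 39.2 and 58.2 CPM in irradiated and 150, 211 and 134 CPM in control tumors. Irradiated 2 was the highest of all 7, and it is not part of the fitted fold change of -1.35 ± 0.29 (adjusted p = 0.912). Fabp4 was at 1408, 423, 2037 and 2086 CPM and 496, 1713 and 434 CPM, with overlap (1.04 ± 0.60, adjusted p = 1).

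The gene of smallest unadjusted p was S100a4, which is in none of the lists. S100a4, a calcium-binding protein gene, was at 36.7, 20.9, 22.1 and 19.4 CPM in irradiated and 87.8, 84.5 and 77.7 CPM in control tumors (-1.61 ± 0.28, adjusted p = 0.445). The groups did not overlap. Clca2 was at 57.1, 52.3, 98.0 and 41.6 CPM and 19.5, 14.5 and 23.4 CPM (1.73 ± 0.35, adjusted p = 0.912). The Notch receptor gene Notch4, a member of the arterial list, was at 81.5, 41.8, 100 and 122 CPM and 43.9, 46.2 and 56.4 CPM (0.99 ± 0.23, adjusted p = 0.912), with irradiated 2 below the controls.

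The matrix list had 11 of 13 positive with 4 above every control (Nid2, Hspg2, Sparc and Col4a1) and a median of 0.23, which was 0.13 with all 7 tumors. Irradiated 2, which was not fitted, lay below every control for Nid2, Hspg2 and Sparc, and its list sum of 9718 CPM was the lowest of all 7, beside 12229 to 14052 CPM in the other irradiated and 10351 to 11510 CPM in the control tumors. Genes of p53 and senescence showed no lean, with 10 of 17 positive and a median of 0.01. Dissociation-stress genes were negative for 11 of 15 (median -0.31), and Fosb and Nr4a1 lay below every control.

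Cell cycle genes were positive for 17 of 24 (median 0.40, 0.86 with all 7 tumors and 0.14 with the technical set as a term). Of the macrophage genes 7 of 7 tested were negative, with a median of -0.93. C1qb was at 14.9, 10.4, 12.3 and 13.8 CPM in irradiated and 35.8, 54.1 and 27.7 CPM in control tumors, and Lyz2 at 36.7, 5.23, 27.0 and 24.9 CPM and 52.0, 67.4 and 67.1 CPM. The pericyte list had 7 of 9 negative and a median of -0.89. Without cells that held at least 3 pericyte UMIs the MHC class I median was 0.74 and the type II interferon median 1.06. The MPNST gene Crabp1 was at 6.79, 10.4, 19.6 and 2.77 CPM in irradiated and 30.9, 149 and 58.6 CPM in control tumors (-3.08 ± 0.82, adjusted p = 1), without overlap. The part of macrophage and MPNST RNA in the group differences was not tested.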

How the data were processed

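Single-cell RNA of 7 tumors (4 irradiated, 3 control; groups from the sample labels) was deposited by the authors as raw UMI counts per gene and cell, which the file headers credit to Cell Ranger 8.0.0. The labels name mm10 and Seurat 4.4. The paper names an earlier Cell Ranger version, so the deposited counts may differ from those analysed there. The annotation of the 33696 listed genes and the counting of intronic reads are not given in the sources used here. Cells with at least 500 genes and at most 10% mitochondrial UMIs were kept (33136 of 39537). No doublets were removed in the reported values. Scrublet (scanpy 1.11.5) called 514, with 2 in irradiated 1 and 4 in irradiated 3, where it cannot be taken to have worked. Leaving its calls out was an alternative.

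The endothelial rule, the anchors and the 24 gene lists were chosen with earlier results of these data known. The lists were written from general knowledge. Sums per tumor entered edgeR 4.0.16 in R 4.3.3 (quasi-likelihood, robust, filterByExpr, TMM, Benjamini-Hochberg over all genes tested, threshold 0.05), or DESeq2 1.42.0 as an alternative, and a tumor needed 20 endothelial cells. Tests over single cells were not used. Shares were compared with two-sided exact permutation tests (scipy 1.17.1). CPM are scaled to the UMIs of the summed cells and not by gene length, so levels are compared within a gene. The p-values measure the spread between tumors. Named genes were the 10 higher and 5 lower genes of largest change per mark (at least 20 CPM on average, same direction in every tumor) and the list of that mark, and for irradiation the 5 higher and 5 lower genes of smallest p plus list members of highest level or largest change. The text describes only part of the genes that met the rule, and 1 gene is not reported here. Other genes given by name, such as called members of other lists, were named after their values were seen. When 200 genes of simulated counts were shifted by a log2 fold change of 2, the fits recovered 94% for irradiation and for the arterial mark, 99.5% for tip, 98.5% for venous, 99% for capillary and 98% for cycling cells. With no gene changed each fit made 0 calls. The shifted genes left out those of lowest count, and counts were drawn at the dispersion trend over genes. Recovery of low genes, or of genes that vary more between tumors than the trend, was therefore not measured. Promoter windows are from RefSeq GRCm38.p6, matched by symbol. The replicate numbers in the labels are not stated to pair tumors. No pairing was used for that reason. Same-numbered tumors deviated with correlations of -0.0961, 0.101 and -0.0774, and differently numbered ones with -0.147 to 0.174. With so few tumors these values cannot show or exclude a pairing.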

Additional observations from a re-analysis of the deposited data

Results flagged for a closer look

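Values of 1 irradiated tumor stood apart from the other 3 in 6 of 64 measures tested for a gap between the extreme and its neighbor. The cutoff is set for about 1 in 20 only where measures are independent and normally distributed. These measures overlap in part and include genes named for their change, so 6 of 64 is not read as an excess. The high extreme was 85.9 CPM of Zbp1 and 814 CPM of Cxcl9 in irradiated 4, 529 CPM of Angpt2 in irradiated 3, and 36.7 CPM of S100a4 in irradiated 1. The low extreme was 61.2 CPM of Psmb9 in irradiated 1. The cell cycle list summed to 2581 CPM in irradiated 2, which had 18 endothelial cells, and to 995, 1039 and 1244 CPM in irradiated 1, 3 and 4. In S100a4 and Psmb9 the extreme tumor was the one nearest to the control tumors.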

How the results depend on the processing

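With 18 to 130 endothelial cells per tumor, and 3 against 3 tumors in the irradiation fit, small changes could not be detected, and groups and technical sets overlap in part. The count of genes changed by irradiation was 0, 1 with DESeq2, 60 when all genes with at least 1 UMI were tested, 1 with the technical set as a term, and 0 to 2 when each tumor was left out, the 2 without control replicate 2. With the replicate number as a block (replicate block) it was 0, with 147 genes at an unadjusted p under 0.05, and 1 when all 7 tumors were used.

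With all genes of at least 1 UMI tested, the counts were 393 for tip, 466 for arterial, 353 for capillary and 635 for cycling marks. Without the replicate block, that is with the tumor term dropped, they were 0 for tip and 15 for capillary marks. DESeq2 gave 158 for arterial. Thinned cells gave 159 for venous and 72 for cycling marks, with fewer genes tested. Apln alone gave 69 for tip, and leaving out cells with pericyte UMIs gave 63 for arterial marks, both alternatives added after seeing the data. The cause of the other changes was not tested.

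Leaving out each tumor moved the endothelial share difference from -0.641 to -0.282, the tip share from 4.21 to 9.62, the venous share from -6.28 to -2.61 and the capillary share from 2.26 to 4.95. The arterial share difference ran from -0.939 to 9.04, and was -0.939 without control replicate 3. The cycling share ran from -1.10 to 5.53, and was -1.10 both without irradiated replicate 4 and with the replicate block.

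Some single values turned direction. After irradiation these were Angpt2 (-0.038 without irradiated replicate 3, from there to 1.71 over the tumors left out) and Selp (0.083 without control replicate 3, from -0.84 to there). Among marks they were Nid1 with tip (-0.24 thinned), Unc5b with tip (-0.034 with Apln alone), Nrp1 with arterial (-0.061 with all genes tested), Aqp1 with capillary (-0.0014 thinned) and C1qtnf9 with capillary (-0.11 without pericyte cells). None of these 7 had passed the threshold.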
